A study of Mus musculus with 4 samples.

Results

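Complement is described here through 9 genes chosen by symbol, of 27998 genes in the deposited table: the subunit genes C1qa, C1qb and C1qc, the components C3, C4b, Cfb and Cfp, and the receptors C3ar1 and C5ar1. All 9 symbols were found in the table. Tumours of the mouse melanoma line B16-F10 were grown from cells implanted with matrigel in C57BL/6 mice and taken on day 14, and CD45-selected infiltrating cells were sequenced from the 3′ end on the 10x platform (v2 chemistry), where a molecular barcode (UMI) lets each captured transcript count once. The Adar1-null group was 2 libraries from tumours lacking the RNA-editing enzyme Adar1, and the control group was 2 libraries from control tumours. The genotype is that of the implanted tumour cells, and the labels give no altered gene for the host mice. How the Adar1-null line was made, and whether a library came from 1 or several mice, is not given in the sources used here.

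C1q is a plasma protein built from A, B and C chains that binds immune complexes and dying cells and starts the classical pathway, in which C4 and then C3 are cleaved. Factor B, encoded by Cfb, and properdin, encoded by Cfp, belong to the alternative pathway, which amplifies C3 cleavage. The fragments C3a and C5a act on myeloid cells through the receptors encoded by C3ar1 and C5ar1. Macrophages, and not the liver, are the main source of C1q, and C1q is a common marker of macrophages in tumours.

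The C1q genes lie side by side on chromosome 4 (GRCm38), all on the minus strand. They fill 136880129 to 136898803, a stretch of 18675 bases with 3 genes inside in the GENCODE annotation. C1qb (ENSMUSG00000036905) spans 136880129 to 136886187, C1qc (ENSMUSG00000036896) spans 136889804 to 136893065, and C1qa (ENSMUSG00000036887) spans 136895917 to 136898803. Upstream sequences are shown for 2 of these subunits, whose transcripts varied together, and for C3, whose estimate had the opposite sign. They come from the RefSeq promoter table (GRCm38.p6), which matched 6 of the 9 members, and are cut before the transcribed part. Capitals mark matches to a Maf half-site (TGCTGA) or a PU.1-type ets site (GAGGAA) searched on both strands, so that TCAGCA and TTCCTC are the same letters read on the other strand.
C1qb, chr4:136886201-136886450, minus strand: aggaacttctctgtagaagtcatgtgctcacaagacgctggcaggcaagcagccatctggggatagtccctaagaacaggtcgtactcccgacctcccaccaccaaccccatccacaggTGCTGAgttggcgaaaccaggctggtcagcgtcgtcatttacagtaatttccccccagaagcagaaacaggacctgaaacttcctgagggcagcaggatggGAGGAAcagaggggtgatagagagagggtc
C1qc, chr4:136893066-136893164, minus strand: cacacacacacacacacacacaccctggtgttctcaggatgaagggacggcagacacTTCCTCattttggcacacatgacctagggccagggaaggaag
C3, chr17:57228137-57228386, minus strand: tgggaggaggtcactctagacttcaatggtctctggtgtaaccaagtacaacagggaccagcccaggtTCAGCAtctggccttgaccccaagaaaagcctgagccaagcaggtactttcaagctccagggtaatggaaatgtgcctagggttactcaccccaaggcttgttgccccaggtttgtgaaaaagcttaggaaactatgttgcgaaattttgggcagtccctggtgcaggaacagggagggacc
The C1qb window held 1 match to each motif, the C1qc window 1 ets match, and the C3 window 1 Maf match. Among 27025 promoters cut to the same 250 bases, 15.8% held the Maf half-site and 23.1% the ets site, and at 99 bases 9.9% held the ets site. A STAT site (TTCNNNGAA) and an interferon response element had 0 matches in these 3 windows. The matches describe letters and not binding.

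S1 and S2 name the Adar1-null libraries here, and the controls are named S3 and S4. The 4 held 1938, 1929, 1943 and 2749 cells after filtering, with medians of 7916.5, 7588, 8813 and 7854 UMIs per cell, and each pair shared 3 to 10 cell barcodes. S4 stood apart from the others, with a chi-square per gene of 52.8 to 85.9 against them, while the other pairs lay between 16.4 and 21.1. Adar was at 9.4 and 12.8 CPM (UMIs scaled to the total of the library or cluster, not to transcript length) in melanoma-like cells of S1 and S2, against 11.4 and 12.9 CPM in S3 and S4, and counts at 3′ ends check nothing about the deletion. The labels do not say whether each library came from its own animal, and p-values therefore reflect library-to-library spread, which may be technical.

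Cells fell into 18 clusters, which were made without complement genes. In 8 of them at least 40% of cells held a UMI of Csf1r, the growth factor receptor of monocytes and macrophages, and Cd68 was detected in 85.1% to 99.2% of their cells. These Csf1r-gated clusters held 5134 of 8559 cells and are called by number and leading genes. They were cluster 2 (Vcam1, Lpl), cluster 3 (Ly6i, Ms4a4c), cluster 4 (Cd209f, Cbr2, Sepp1), cluster 5 (Arg1, Spp1), cluster 6 (Mmp12, Cxcl3), cluster 7 (Chil3, Hp, monocyte-like), cluster 10 (Cd300e, Lipg) and cluster 15 (Retnla, Ear2). The limit of 40% was set after the values were seen. The nearest cluster outside it, conventional dendritic cell 2-like, was at 28.8% and the nearest inside, cluster 6, at 49.0%.

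C1q transcripts differed widely among the Csf1r-gated clusters, which fell in the same order by C1q level in all 4 libraries. Cluster 4 held the most C1q, with summed C1qa, C1qb and C1qc levels of 16750 and 19718 CPM in Adar1-null libraries, against 17948 and 20134 CPM in controls. Cluster 10 followed at 15592 and 17291 CPM in the Adar1-null libraries and 15558 and 18506 CPM in the controls. The ranges of clusters 4 and 10 over the libraries overlapped, and cluster 4 was above cluster 10 within each of the 4 libraries. Cluster 2 lay below both, at 13869 and 14938 CPM in Adar1-null libraries against 13957 and 14905 CPM in controls. Cluster 3 (8951 to 11291 CPM over the 4 libraries) and cluster 5 (6489 to 9712 CPM) overlapped, as did cluster 6 (4015 to 5912 CPM) and cluster 15 (2868 to 4969 CPM). The monocyte-like cluster 7 was lowest, at 1267 to 2107 CPM. T cell-like cells, which should lack C1q, held 190 to 254 CPM. They were of 2 clusters, cluster 1 (Gzmf, Cd8b1) at 122 to 191 CPM and cluster 9 (Tnfrsf4, Foxp3) at 379.9 to 874 CPM. Csf1r was detected in 5.4% of cells of cluster 1 and 20.6% of cluster 9, so the pooled T cell-like value is not a measure of free RNA alone.

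**Figure D1:**
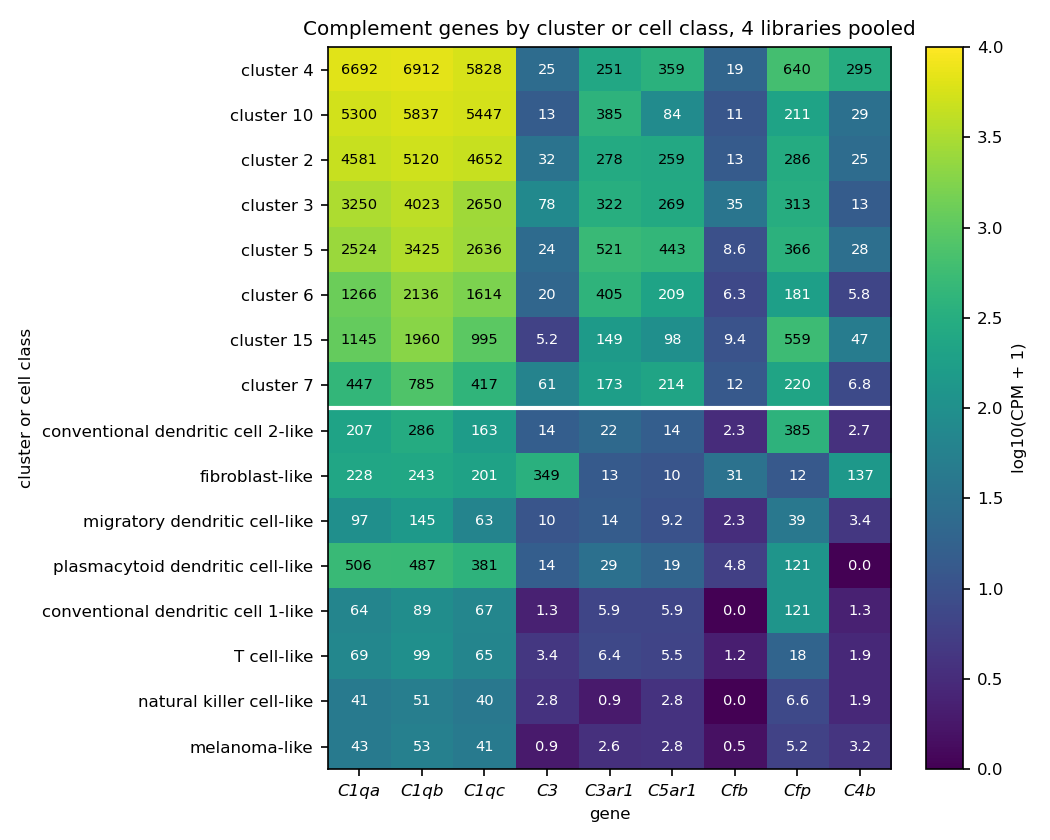
Level of each complement gene (columns) in each Csf1r-gated cluster (upper 8 rows) and each other cell class (lower 8 rows), in CPM with the 4 libraries pooled. Colour gives log10(CPM + 1) and the printed number the CPM, with the C1q genes highest in cluster 4 and C3 highest in fibroblast-like cells.

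**Figure D2:**
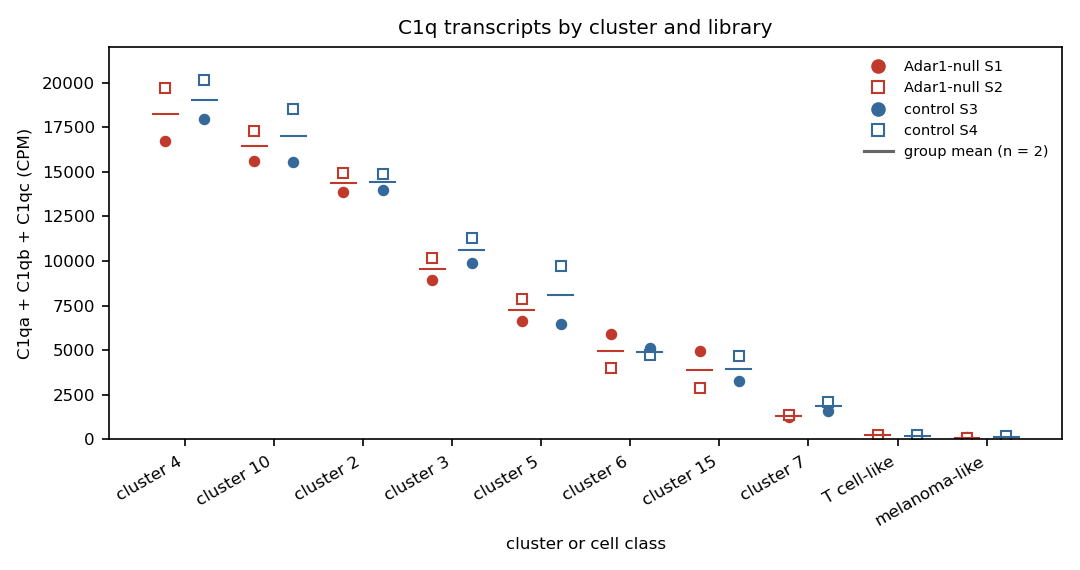
Summed C1qa, C1qb and C1qc level in CPM (vertical axis) by cluster or cell class (horizontal axis), with 1 point per library and a line at each group mean (n = 2). Adar1-null and control libraries overlap in each Csf1r-gated cluster shown except the monocyte-like cluster 7, and T cell-like cells lie between 190 and 254 CPM.

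The proportions of the subunits were close between groups. Over all Csf1r-gated cells, C1qb gave 37.7% and 37.9% of C1q UMIs in the Adar1-null libraries, against 37.5% and 36.7% in controls. C1qa gave 32.8% and 31.8% in Adar1-null libraries, against 32.3% and 31.9% in controls. In T cell-like cells C1qb gave 38.0% to 46.7%. Within clusters the C1qb share was lowest in clusters 2, 4 and 10 (34.5% to 37.4%). It was higher in the monocyte-like cluster 7 (46.2% to 50.4%) and in cluster 15 (42.73% to 52.25%). Clusters 3, 5 and 6 lay at 38.8% to 46.0%. These shares compare counts of 3′ ends and not of full-length transcripts.

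Cells of 1 cluster also differed among themselves. With each cell thinned to 3961 UMIs, the smallest depth in the table, which left no cell out, the median C1q count was 76 in cluster 4 (quartiles 59 and 94) and 53 in cluster 2 (quartiles 39 and 70). Cluster 3 spanned a wider range, with a median of 35 and quartiles of 5 and 58, and cluster 5 a median of 28 with quartiles of 6 and 48.3. In the monocyte-like cluster 7 the median was 1, and 61.4% of thinned cells (exact 95% interval 57.1% to 65.5%) held a C1q UMI, against 65.9% before thinning. T cell-like cells reached 38.2% (exact interval 35.6% to 40.9%) after thinning and 63.6% before it. Their median depth was 8739 UMIs and that of cluster 7 was 5063 UMIs. The intervals cover counting error only.

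The other members had other distributions, all pooled over libraries. C3, the central component, was highest in fibroblast-like cells at 349 CPM, then in clusters 3 and 7 at 78.4 and 60.8 CPM. C4b was highest in cluster 4 at 295 CPM and in fibroblast-like cells at 137 CPM, and was under 50 CPM in the other Csf1r-gated clusters. C3ar1 peaked in cluster 5 at 521 CPM and C5ar1 in the same cluster at 443 CPM. Cluster 10, second in C1q, held 385 CPM of C3ar1 and 83.8 CPM of C5ar1. Cfp, encoding properdin, was at 640 CPM in cluster 4 and 559 CPM in cluster 15. Cfp was at 385 CPM in conventional dendritic cell 2-like cells, above its level in 6 of the 8 gated clusters. Cfb was low throughout, with 34.9 CPM in cluster 3 and 31.3 CPM in fibroblast-like cells as its highest levels. Cfb (chromosome 17, 34856374 to 34862518, minus strand) overlaps the predicted gene Gm20547, and how reads in both were assigned is not given in the sources used here. C4b (chromosome 17, 34728380 to 34743882, minus strand) has a near-identical copy, C4a, for which no row was used here, so its counts are uncertain.

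The first comparison asked how complement transcripts differed between Adar1-null and control tumours over the whole selected infiltrate. Sums over it include melanoma-like cells, which gave 44.5% and 40.5% of all UMIs in S1 and S2, against 35.8% and 35.3% in S3 and S4. C1q was lower in both Adar1-null libraries. Summed C1q was 3727 and 3910 CPM in Adar1-null libraries, against 5163 and 6568 CPM in controls. Both Adar1-null libraries lay below both controls, and S4 was the highest. The group means were 3819 ± 130 CPM for the Adar1-null group and 5865 ± 994 CPM for the controls (SD, n = 2 each). The log2 changes from edgeR's quasi-likelihood fit were -0.68 ± 0.14 (SE) for C1qa, -0.66 ± 0.14 for C1qb and -0.74 ± 0.16 for C1qc. None of the 3 passed the Benjamini-Hochberg adjustment over 13465 genes (adjusted p = 0.536 for each). DESeq2, run as an alternative, called all 3, with adjusted p of 0.00844, 0.011 and 0.011 for C1qa, C1qb and C1qc. Without S4 the edgeR estimates were -0.49, -0.47 and -0.51.

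Components and receptors had estimates of both signs, and edgeR called none. C4b was at 11.8 and 9.75 CPM in Adar1-null libraries, against 28.5 and 60.0 CPM in controls (log2 change -2.11 ± 0.45, adjusted p = 0.536 by edgeR and 1.85e-05 by DESeq2). Cfp was at 129 and 109 CPM in Adar1-null libraries, against 173 and 204 CPM in controls, a log2 change of -0.73 ± 0.13 (adjusted p = 0.536 by edgeR and 0.00574 by DESeq2). C5ar1 was at 86.8 and 68.4 CPM in Adar1-null libraries, against 111 and 182 CPM in controls, a log2 change of -0.99 ± 0.31 (adjusted p = 0.538 by edgeR and 0.0416 by DESeq2). Without S4 the C5ar1 estimate was -0.57. In these 3 genes the groups did not overlap and S4 was highest. C3ar1 was at 112 and 121 CPM in Adar1-null libraries, against 133 and 166 CPM in controls (-0.43 ± 0.13, and -0.25 without S4). C3 had the opposite sign, with 24.02 and 25.09 CPM in Adar1-null libraries, against 20.5 and 17.4 CPM in controls (0.31 ± 0.10). Cfb overlapped between the groups (0.26 ± 0.26, and 0.01 without S4).

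All 9 members passed the filter on low counts in the whole infiltrate. In 7 of them both Adar1-null libraries lay below both controls, against 14.5% of all 13465 genes, and in 1, C3, they lay above, against 34.5%. edgeR called 0 of the 9 and 0 of all genes (0%), with 7 members lower and 1 higher at an unadjusted p under 0.05, against 6.15% and 3.04% of genes. DESeq2 called 6 of the 9, all lower, against 0.686% of genes lower and 0.0473% higher. The median log2 change was -0.68 over the 9 members and 0.01 over all genes tested. Leaving out S3 let edgeR call C4b (-2.56, adjusted p = 0.0175) and 118 genes in all, while leaving out S4 gave 0 calls. Sums over the infiltrate are relative to all UMIs. Fewer C1q-rich cells, less C1q RNA per such cell and more UMIs of other cells therefore cannot be told apart in them.

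**Figure D3:**
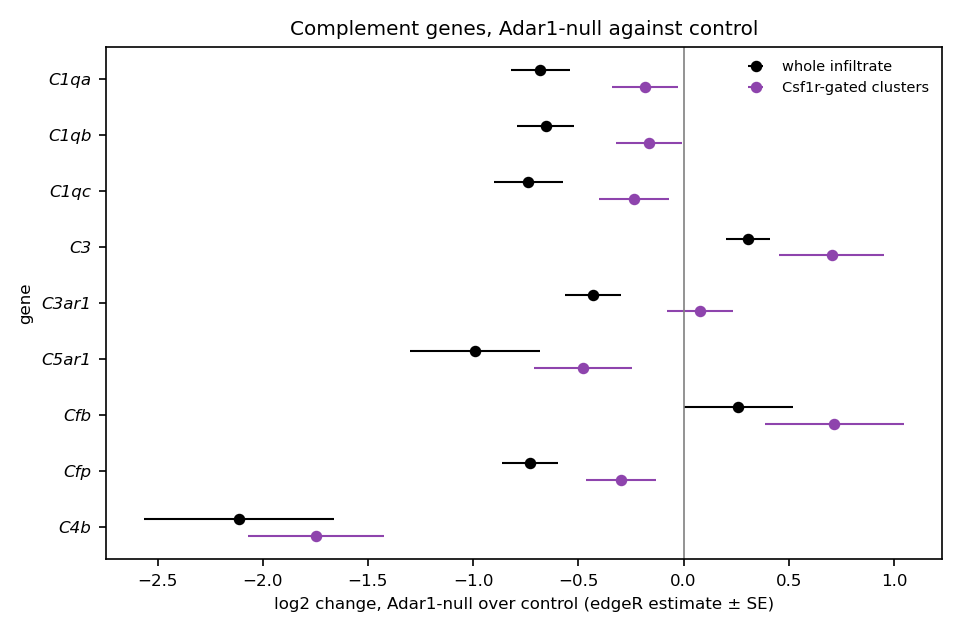
Log2 change of Adar1-null over control from edgeR with its standard error (horizontal axis) for each complement gene (vertical axis), over the whole infiltrate and over Csf1r-gated clusters, with 2 libraries per group. The C1q estimates lie between -0.74 and -0.66 over the infiltrate and between -0.23 and -0.16 within the gated clusters, and C3 and Cfb lie above 0 in both.

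The next comparison separated the share of Csf1r-gated cells and clusters from their C1q level. Csf1r-gated clusters gave 34.9% and 34.1% of all UMIs in S1 and S2, against 44.2% and 49.8% in S3 and S4, and 52.1% and 52.6% of cells against 59.4% and 71.1%. The whole-infiltrate C1q difference was -2047 CPM. Split over the 18 clusters and averaged over the 4 pairs of an Adar1-null and a control library, -1817 CPM came from the mix of clusters (pairs from -2291 to -1358) and -230 CPM from levels within clusters (pairs from -746 to 273). The mix part had the same sign in all 4 pairs, and the level part did not. The pairs cross the same 4 libraries and are not independent, so their common sign is a description. Without S4 the difference was -1344 CPM, with -1442 CPM from the mix and 97.2 CPM from levels. Split only into gated and all other cells, -1418 CPM came from the share of gated cells (pairs from -1852 to -998) and -629 CPM from levels within the 2 classes, negative in all 4 pairs (from -1139 to -133). The level part of this coarser split also holds the mix of clusters inside the gated class, and without S4 it was -286 CPM. The contribution of a cluster to the mix part was its difference in UMI share times the distance of its C1q level from the mean of the groups. Clusters below that mean and with a larger share in Adar1-null libraries therefore count as negative. Cluster 4 contributed -1235 CPM to the mix part over the 18 clusters, against -1936 CPM without S3 and -498 CPM without S4. Without S4 cluster 2 contributed more, at -602 CPM. With all libraries, cluster 2 contributed -349 CPM and melanoma-like cluster 0 contributed -338 CPM. Cluster 0 lay below the mean C1q level and gave a mean of 39.1% of UMIs in Adar1-null libraries, against 32.0% in controls. Clusters 3 and 10 contributed 274 and 226 CPM in the other direction. Summed erythroid markers in Csf1r-gated cells were at 0 and 1.01 CPM in Adar1-null libraries, against 2.69 and 766 CPM in controls, with all 6 markers at 0 in S1 and each above 0 over the 4 libraries together, and their part in the result was not tested.

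Over the Csf1r-gated clusters as 1 class, the C1q genes differed less. Summed C1q was 10334 and 11118 CPM in Adar1-null libraries, against 11450 and 12967 CPM in controls. The Adar1-null values were below both control values, by a small margin between S2 and S3. The log2 changes were -0.18 ± 0.16 for C1qa, -0.16 ± 0.16 for C1qb and -0.23 ± 0.17 for C1qc (adjusted p = 0.876, 0.879 and 0.861 by edgeR over 10961 genes). Without S4 they were -0.09, -0.08 and -0.11.

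Cluster 4, rich in C1q, held fewer cells in both Adar1-null libraries than in either control. It held 82 and 27 cells in S1 and S2, against 160 and 701 cells in S3 and S4, and gave 7.36% and 2.22% of gated UMIs in Adar1-null libraries, against 11.9% and 31.1% in controls. Among 8 clusters tested for cell numbers with edgeR's quasi-likelihood test, its log2 ratio was -2.203 ± 1.03 (adjusted p = 0.381), and no cluster passed the adjustment. Without S4 the ratio was -1.36. Cluster 3 had 236 and 455 cells in Adar1-null and 276 and 69 cells in control libraries, which overlapped. Cluster 10, also rich in C1q, had 33 and 109 cells in Adar1-null and 50 and 11 cells in control libraries, which overlapped too.

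With each cluster held at 1 mean level, so that libraries differed only in their mix, gated C1q was 10912 and 10911 CPM in Adar1-null libraries, against 11916 and 11920 CPM in controls (log2 ratio -0.13). With each library set to 1 common mix, so that only levels within clusters differed, C1q was 10669 and 11660 CPM in Adar1-null libraries, against 10950 and 12380 CPM in controls (log2 ratio -0.06), and the groups overlapped. The exact two-sided permutation p was 0.333 for the mix values, the smallest that 6 splits allow, and 0.667 at the common mix. Of the gated difference of -1483 CPM, -994 CPM came from the mix (pairs from -1069 to -898) and -488 CPM from levels (pairs from -1645 to 691). Measured against the mean gated level of the groups, cluster 4 contributed -1269 CPM and the monocyte-like cluster 7 -319 CPM to the mix part. Cluster 10 contributed 367 CPM in the other direction. Cluster 7 lay below that mean and gave a mean of 8.72% of gated UMIs in Adar1-null libraries, against 5.50% in controls. The contribution of cluster 4 was -1947 CPM without S3 and -519 CPM without S4, and that of cluster 10 was 193 CPM without S4. When clusters 4, 10 and 15 were left out, a choice made after the data were seen, gated C1q was 9774 and 9919 CPM in Adar1-null libraries, against 10449 and 9733 CPM in controls, and the groups overlapped. In those 5 clusters the mix alone gave a log2 ratio of 0.03.

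**Figure D4:**
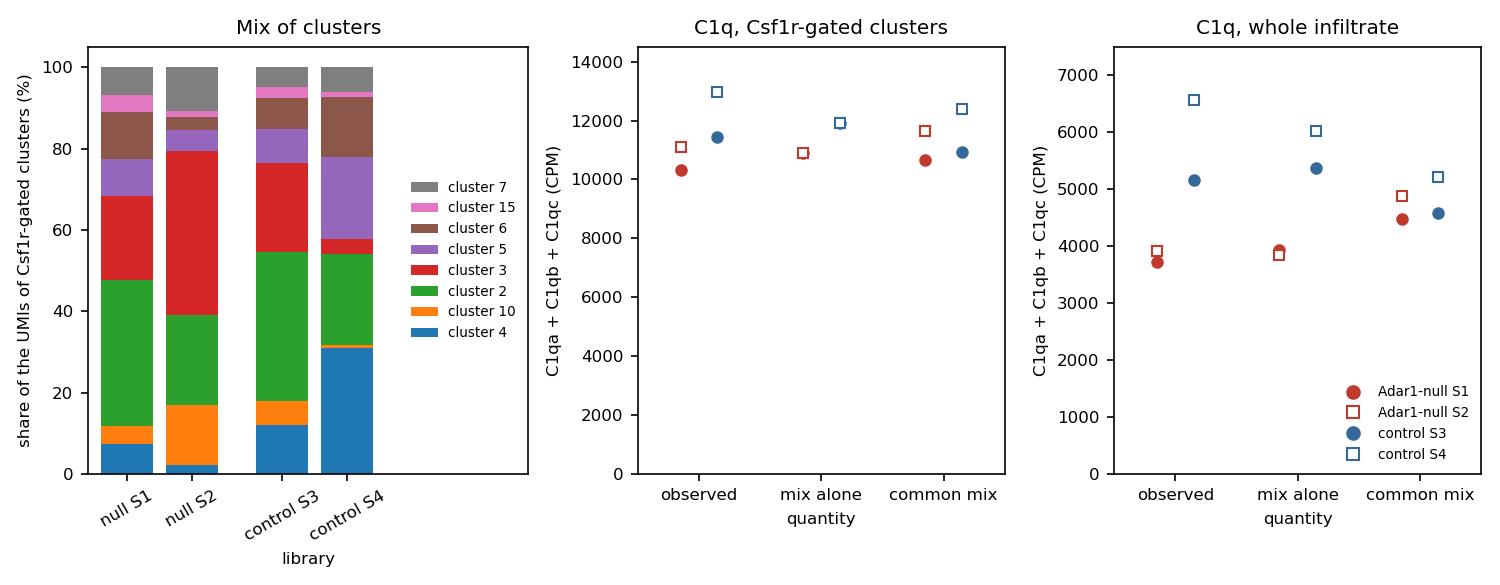
Left, share of the UMIs of Csf1r-gated clusters held by each cluster (percent) in each library; middle and right, C1q level in CPM per library as observed, from the mix of clusters alone, and at a common mix, for the gated clusters and the whole infiltrate. Cluster 4 is largest in S4 at 31.1%, and at the common mix the Adar1-null and control points overlap.

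Within single clusters, C1q levels overlapped between the groups in 7 of 8 clusters. The exception was the monocyte-like cluster 7, with 1267 and 1385 CPM in Adar1-null libraries, against 1602 and 2107 CPM in controls. There the log2 changes were -0.50 ± 0.21 for C1qa, -0.56 ± 0.19 for C1qb and -0.40 ± 0.21 for C1qc (adjusted p = 0.833, 0.801 and 0.902 by edgeR). Without S4 they were -0.20, -0.36 and -0.08, and without S3 -0.72, -0.71 and -0.64. In that cluster both Adar1-null libraries lay below both controls in 16.8% of 5606 genes. Both Adar1-null libraries also lay below both controls in some clusters that should lack C1q. T cell-like cluster 1 held 151 and 122 CPM in Adar1-null libraries, against 157 and 191 CPM in controls, and melanoma-like cluster 0 held 101 and 87.8 CPM in Adar1-null libraries, against 106 and 183 CPM in controls. T cell-like cluster 9 overlapped, at 583 and 874 CPM in Adar1-null libraries, against 379.9 and 603 CPM in controls. The part of free RNA in the cluster 7 result was not tested. In the 4 largest gated clusters, 2, 3, 4 and 5, estimates for the C1q genes lay between -0.24 and 0.04. An interaction of genotype and cluster, fitted over 8346 genes of which 2 (0.024%) were called, gave adjusted p = 1 for each member.

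C3 had a positive estimate in the Csf1r-gated clusters. Over the gated clusters it was at 45.0 and 56.3 CPM in Adar1-null libraries, against 38.0 and 24.2 CPM in controls (log2 change 0.70 ± 0.25, adjusted p = 0.858 by edgeR). Both Adar1-null libraries lay above both controls in clusters 2, 3, 5 and 6, 4 of the 6 clusters in which C3 could be tested. The share of genes that did so was 14.3% in cluster 2, 17.7% in cluster 3, 15.5% in cluster 5 and 16.5% in cluster 6. In cluster 2 the levels were 36.8 and 45.2 CPM in Adar1-null libraries, against 28.4 and 26.3 CPM in controls (0.57 ± 0.20, adjusted p = 1 by edgeR). In cluster 5 they were 35.7 and 48.6 CPM in Adar1-null libraries, against 28.9 and 16.6 CPM in controls (0.96 ± 0.37, adjusted p = 0.994 by edgeR, and 0.52 without S4). In cluster 4 the estimate was negative (-0.92 ± 0.56) with overlapping groups. At a common mix C3 stayed apart, at 44.2 and 49.9 CPM in Adar1-null libraries, against 38.9 and 34.2 CPM in controls. Without S4 the gated estimate was 0.42. Summed fibroblast markers in the gated cells were 7.47 and 8.94 CPM in Adar1-null libraries, against 8.25 and 16.8 CPM in controls, with 8 of 8 markers above 0 over the 4 libraries together. Conventional dendritic cell 2 markers were at 503 and 460 CPM in Adar1-null libraries, against 504 and 647 CPM in controls. Like erythroid markers, they lay below both controls. Markers of neutrophils, conventional dendritic cells 1, melanoma, endothelial cells and mast cells or basophils overlapped, as fibroblast markers did. In 5 other classes the summed markers in the gated cells lay above both controls in both Adar1-null libraries, as C3 did. T cell markers were at 66.1 and 42.9 CPM in Adar1-null libraries, against 29.5 and 23.01 CPM in controls, and natural killer cell markers at 13.3 and 13.1 CPM in Adar1-null libraries, against 4.93 and 2.15 CPM in controls. B cell markers were at 21.3 and 34.4 CPM in Adar1-null libraries, against 20.6 and 15.6 CPM in controls. Migratory dendritic cell markers were at 309 and 354 CPM in Adar1-null libraries, against 269 and 161 CPM in controls, and plasmacytoid dendritic cell markers at 644 and 785 CPM in Adar1-null libraries, against 639 and 449 CPM in controls. All 8, 8, 6, 8 and 7 markers of these lists, in this order, were above 0 over the 4 libraries together, and their part in the C3 result was not tested. The plasmacytoid list holds Bst2 and Tcf4 and the migratory list Ccl5, and whether gated cells made these transcripts was not tested. In T cell-like cells C3 lay apart in the same direction, at 5.78 and 4.70 CPM in Adar1-null libraries, against 1.005 and 1.584 CPM in controls (log2 change 1.92 ± 0.51, adjusted p = 0.333 by edgeR). These values rest on 19 and 19 UMIs in Adar1-null libraries and 3 and 5 UMIs in controls. In that class 24.2% of 9453 genes lay higher in both Adar1-null libraries. The part of free RNA in the C3 result was not tested.

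Cfb had a positive estimate as well. It was at 18.4 and 26.9 CPM in Adar1-null gated cells, against 17.7 and 10.03 CPM in controls (0.72 ± 0.33, adjusted p = 0.858 by edgeR). S1 and S3 were close, and without S4 the estimate was 0.36. In cluster 3 it was at 45.8 and 36.2 CPM in Adar1-null libraries, against 30.8 and 13.3 CPM in controls (0.64 ± 0.28, adjusted p = 0.886 by edgeR), and the estimate was 0.38 without S4 and 1.61 without S3. The S4 value rests on 69 cells and 8 Cfb UMIs. In that cluster 17.7% of 8270 genes lay higher in both Adar1-null libraries.

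C4b had the largest estimate among the members in the gated clusters. Its level was 27.17 and 23.05 CPM in Adar1-null libraries, against 59.3 and 109 CPM in controls, a log2 change of -1.75 ± 0.32 (adjusted p = 0.858 by edgeR and 0.00122 by DESeq2). Of the difference of -58.9 CPM, -38.0 CPM came from the mix and -20.9 CPM from levels, and the level part was negative in all 4 pairs (from -31.4 to -8.79). In cluster 4, where its level was highest, C4b was at 165 and 210 CPM in Adar1-null libraries, against 342 and 301 CPM in controls (-0.85 ± 0.22, adjusted p = 0.541 by edgeR). Cluster 4 gave 99 of 222 and 37 of 183 gated C4b UMIs in S1 and S2, against 455 of 662 and 1519 of 1765 in S3 and S4. In that cluster 18.2% of 6977 genes lay lower in both Adar1-null libraries. The S2 value rests on 27 cells and 37 C4b UMIs. At Leiden resolution 2.0 the leading genes Cbr2 and Cd209f of cluster 4 headed separate clusters. How the blend of subtypes inside cluster 4 enters its levels was not tested. The C4b call in cluster 4 passed without S3 (-0.81, adjusted p = 0.0238) and without S4 (-0.97, adjusted p = 0.0286), fits in which the lone control is assumed to vary like the other group. Over all gated clusters the estimate was -1.24 without S4 and -2.13 without S3 (adjusted p = 0.00893 by edgeR), and -0.52 when clusters 4, 10 and 15 were left out.

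The receptors and properdin differed in how much the mix accounted for. C5ar1 was at 240.0 and 197 CPM in Adar1-null gated cells, against 246.4 and 360.0 CPM in controls (-0.48 ± 0.23, adjusted p = 0.858 by edgeR). S1 and S3 were close, and without S4 the estimate was -0.17. Of its difference of -84.8 CPM, -28.0 CPM came from the mix (pairs from -54.4 to -6.77) and -56.9 CPM from levels (pairs from -109 to 0.345). Without S4 the mix part was -11.5 CPM and the level part -16.5 CPM. Both Adar1-null libraries lay below both controls in clusters 3, 5 and 7, as 17.6%, 17% and 16.8% of genes did, and above them in cluster 10, as 15.4% did. In cluster 7 the levels were 141 and 152 CPM in Adar1-null libraries, against 160 and 335 CPM in controls (-0.80 ± 0.33, adjusted p = 0.855 by edgeR), and S4 was the highest. Without S3 this estimate was -1.22 (adjusted p = 0.000148 by edgeR), and without S4 it was -0.10 (adjusted p = 0.995 by edgeR), so the call without S3 rests on S4. C3ar1 overlapped in the gated clusters, at 313 and 347 CPM in Adar1-null libraries, against 297 and 327 CPM in controls (0.08 ± 0.16). Cfp was at 323 and 278 CPM in Adar1-null libraries, against 351 and 386 CPM in controls (-0.30 ± 0.17). For Cfp -64.3 CPM of -67.7 CPM came from the mix, and at a common mix the groups overlapped.

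**Figure D5:**
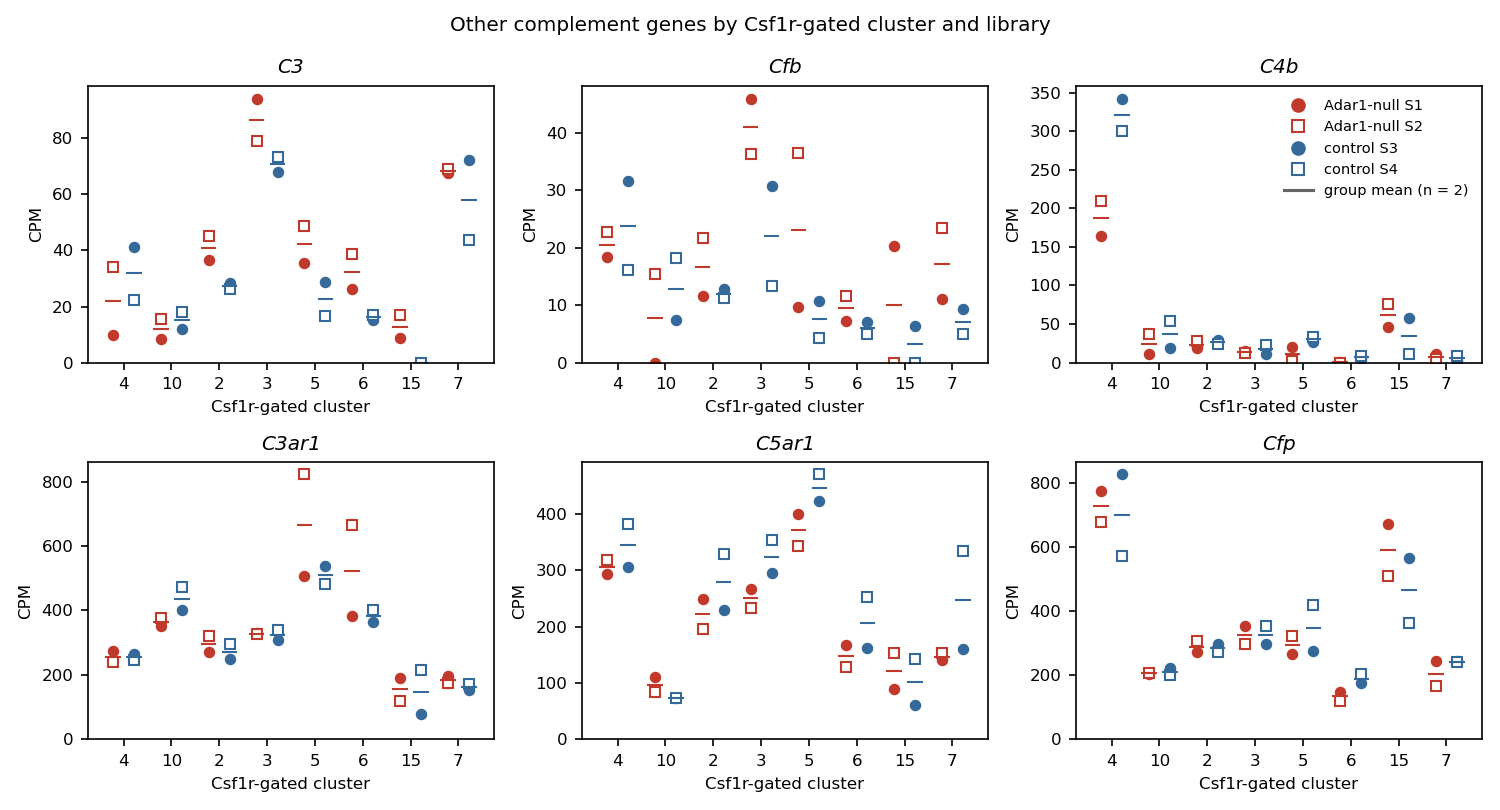
Levels in CPM (vertical axes) of C3, Cfb, C4b, C3ar1, C5ar1 and Cfp by Csf1r-gated cluster (horizontal axes, in order of C1q level), with 1 point per library and a line at each group mean (n = 2). Both Adar1-null libraries lie above both controls for C3 in clusters 2, 3, 5 and 6, and C4b is at 165 and 210 CPM in Adar1-null cluster 4 against 342 and 301 CPM in controls.

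Over the gated clusters, 6 of the 9 members were lower and 2 higher without overlap, where 18.2% and 17.3% of 10961 genes were. edgeR called 0 members and 0 genes, with C3 higher and C4b lower at an unadjusted p under 0.05, against 1.82% and 3.2% of genes. DESeq2 called 1 member, C4b, and 21 genes in all, 0.0365% of genes higher and 0.155% lower. The median log2 change was -0.18 over the members and -0.00 over all genes tested.

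In the other 8 cell classes pooled C1q was at most 1375 CPM, below every Csf1r-gated cluster. In melanoma-like cells C1qb was at 46.4 and 37.9 CPM in Adar1-null libraries, against 58.2 and 68.2 CPM in controls, below the level in T cell-like cells. Its log2 change of -0.59 ± 0.10 was the only member call of edgeR in any class (adjusted p = 0.0141, where 0.193% of 11388 genes were called), and DESeq2 did not call it (adjusted p = 0.167). In conventional dendritic cell 2-like cells C1qb was at 479 and 268 CPM in Adar1-null libraries, against 213 and 185 CPM in controls (0.84 ± 0.27, adjusted p = 0.916 by edgeR). In conventional dendritic cell 1-like cells C1qc was at 34.6 and 39.9 CPM in Adar1-null libraries, against 116 and 57.9 CPM in controls (-1.29 ± 0.39, adjusted p = 0.426 by edgeR), from 25 to 49 cells per library. Among 10 plasmacytoid dendritic cell-like cells of S4, summed C1q reached 4153 CPM, against 115 and 143 CPM in S1 and S2 and 166 CPM in S3.

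Other genes of the pathway were taken as 6 lists. Over the gated clusters, edgeR called none of the tested genes, which were 4 of 15 classical and lectin pathway genes, 1 of 8 alternative and terminal components, 5 of 16 regulators, 11 of 13 receptors, 2 of 5 C1q-like genes and 8 of 8 transcription factors reported to regulate C1q in mouse macrophages. In that order, 2, 1, 4, 2, 1 and 2 genes of these lists had both Adar1-null libraries below both controls, and 1 receptor and 1 transcription factor had them above, where 18.2% of all genes tested lay below and 17.3% above. The median log2 changes of the lists in the same order were -1.45, -3.45, -0.30, -0.02, -0.63 and 0.10, against -0.00 over all genes tested. C6, a component of the membrane attack complex, was at 1.59 and 1.26 CPM in Adar1-null gated cells, against 11.2 and 19.8 CPM in control ones (-3.45 ± 0.40, adjusted p = 0.858 by edgeR and 2.85e-07 by DESeq2), and cluster 4 gave 10 of 13 and 9 of 10 of its UMIs in Adar1-null libraries and 116 of 125 and 300 of 322 in controls. Within cluster 4 C6 was at 16.6 and 51.0 CPM in Adar1-null libraries, against 87.1 and 59.4 CPM in controls (-1.49 ± 0.45, adjusted p = 0.716 by edgeR). As for C4b, the part of the blend of subtypes inside cluster 4 was not tested.

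The most abundant genes of each list, and some further receptors, were read the same way. The lectin-pathway ficolin Fcna was at 15.8 and 5.04 CPM in Adar1-null gated cells, against 26.7 and 69.6 CPM in control ones (-2.22 ± 0.70), and in cluster 4, its main source, at 166 and 159 CPM in Adar1-null libraries, against 197 and 189 CPM in controls. The protease gene C1ra (0.13 ± 0.29), the calreticulin gene Calr (0.17 ± 0.20) and the integrin gene Itgb2 (0.36 ± 0.29) overlapped between groups. The C3-regulator gene Cr1l was at 40.3 and 40.4 CPM in Adar1-null libraries, against 44.5 and 41.5 CPM in controls (-0.09 ± 0.14). C1qtnf6 overlapped (0.04 ± 0.24) and C1qtnf1 was at 1.71 and 1.01 CPM in Adar1-null libraries, against 3.23 and 3.51 CPM in controls (-1.30 ± 0.38). C8g had 38 UMIs in the gated cells and was not tested there. Vsig4, a macrophage receptor for C3 fragments, was at 2.203 and 0 CPM in Adar1-null gated cells, against 2.78 and 22.1 CPM in control ones, so S4 stood alone. Itgax, a subunit of complement receptor 4, was at 33.0 and 41.2 CPM in Adar1-null libraries, against 23.5 and 11.9 CPM in controls (1.08 ± 0.34, adjusted p = 0.858 by edgeR). Of the transcription factors, Spi1, which encodes PU.1, overlapped (0.40 ± 0.23). Maf was at 154 and 135 CPM in Adar1-null gated cells, against 176 and 244 CPM in control ones (-0.54 ± 0.21, adjusted p = 0.858 by edgeR). Over the whole infiltrate DESeq2 called Maf (adjusted p = 0.0435).

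Over 32 sums of a library and a gated cluster, the genes most like summed C1q in log2 CPM, among 2479 genes with a mean of at least 50 CPM, were Grn (Pearson r = 0.956), Adgre1 (0.908), Tmem86a (0.884), Plod1 (0.882), Tspan4 (0.882), Nenf (0.873), Hexa (0.868), Atp13a2 (0.862), Acp2 (0.852) and Abhd12 (0.841). The 32 sums share 4 libraries and 8 clusters, so r is a description. C3 was most like Ifngr2 (0.818), Cd40 (0.790) and Ms4a6d (0.759), and Cfb most like Ifit2 (0.752), Copz1 (0.743) and H2-M3 (0.727). C3ar1 was most like Cd68 (0.888), Lgmn (0.861) and Por (0.802), and C5ar1 most like Il10rb (0.855), Zfp36l1 (0.842) and Stab1 (0.796). Cfp was most like Pepd (0.852), Ap2m1 (0.850) and Ap2a2 (0.846). C4b was most like Pltp (0.870), mt-Atp6 (0.868) and mt-Cytb (0.862).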

How the data were processed

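Raw UMI counts, as deposited by the authors, covered all 4 libraries in 1 matrix. The submitters' processing notes name Cell Ranger, Seurat 2.2.0 and mm10, with settings not given in the sources used here. The barcode list names each library's group but no replicate number, so S1 to S4 are only names. Totals of kept cells were 23434308 to 32670356 UMIs, and 2 libraries a group limit the precision.

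Barcodes under 500 genes or over 10% mitochondrial UMIs were dropped (161 of 8838). Scrublet (scanpy 1.11.5) scores above 0.1 removed 118 doublets (1.36%). Counts were clustered (2000 variable genes, 30 components, 20 neighbours, Leiden resolution 1.0, leidenalg 0.10.2) leaving out genes of complement (65 genes), antigen receptors, mitochondria, dissociation, the cell cycle, MHC and interferon response, with no batch or free-RNA correction.

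UMIs were summed per library and unit, and tested with edgeR 4.0.16 (R 4.3.3, TMM, default low-count filter, robust quasi-likelihood, Benjamini-Hochberg at 0.05). DESeq2 1.42.0 was an alternative. The planned class of monocyte- or macrophage-like cells was taken as the Csf1r-gated clusters, since the marker rule left clusters 4, 10 and 15 unnamed. Cluster 4 scored best for macrophage markers (2.06, with 12 detected). Its 10 leading genes held 0 macrophage markers and 1 conventional dendritic cell 2 marker. For each of the 4 pairs of libraries the C1q difference was split into differences in shares of UMIs times mean levels (mix) and mean shares times differences in levels (level). Contributions of single clusters to the mix used levels relative to the mean of the groups, over the libraries kept. This leaves the sum over clusters unchanged. Both methods were tested on simulated data, with a fixed dispersion for all genes (edgeR) or Poisson counts alone (split). The simulations held no library that stood apart as S4 did, so they do not test that case. Named genes were the 9 members, list genes called in a fit, the 2 genes per list with most UMIs in gated cells and the most correlated genes. Cfb in cluster 3, Fcna in cluster 4, Itgax, Vsig4, Maf and the members shown in dendritic cells were chosen after their values were seen. Results of 2 list genes that this rule names are not reported here. The members and lists were chosen with earlier results of these data known.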

Additional observations from a re-analysis of the deposited data

Results flagged for a closer look

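C5ar1 had estimates of opposite sign in different Csf1r-gated clusters. Both Adar1-null libraries lay below both controls in cluster 3 (log2 change -0.37), cluster 5 (-0.27) and cluster 7 (-0.80), and above both in cluster 10 (0.38). The receptor gene C3ar1 lay above both controls in both Adar1-null libraries in cluster 7 (0.16) and below them in cluster 10 (-0.21). So did 16.7% of genes in cluster 7 and 14.6% in cluster 10. In cluster 7 the C3ar1 groups nearly touched, at 173.2 CPM in S2 and 172.5 CPM in S4. Without S4 the C5ar1 value in cluster 7 was -0.10. These differences between single clusters were not tested. The interaction of genotype with all 8 clusters, fitted with edgeR across genes, had an adjusted p of 1 for both receptors. Cluster 10 held 11 cells in S4. With 2 libraries a group, it cannot be said which library of a group lies apart from the other. S4 differed most from the other libraries by the chi-square per gene.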

How the results depend on the processing

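No paired analysis was possible because the library names carry no replicate number. With DESeq2 in place of edgeR, 6 members and 93 genes were called over the whole infiltrate, and 1 member and 21 genes over the Csf1r-gated clusters. With no filter on low counts, edgeR called 1 gene over the infiltrate and 5 over the gated clusters. With clusters 4, 10 and 15 left out, a choice made after the data were seen, the C1q log2 ratio from the mix alone turned to 0.0253, C1qa to 0.0131 and C3ar1 to -0.0023. At Leiden resolution 0.5 the ratio at a common mix turned to 0.0434. At resolution 2.0, with 16 gated clusters, it was -0.0274, and the ratio from the mix alone was -0.159. The common-mix ratio was -0.0066 with complement genes kept in the clustering and -0.0075 with doublets kept. With each gated cell assigned by subtype markers in place of clusters it was -0.0831. Across 4 fits that each left out 1 library, members called ranged from 0 to 1 over the infiltrate, the gated clusters, cluster 4 and cluster 7, genes called from 0 to 118 over the infiltrate and 0 to 105 over the gated clusters, and the common-mix ratio from -0.1531 to 0.0259. The calls over the gated clusters and infiltrate came without S3. The log2 ratio of cell numbers ranged from -0.6452 to 0.4142 in cluster 2, -1.527 to 0.0072 in cluster 6 and -0.5495 to 1.135 in cluster 15. Estimates also changed sign for C3ar1 over the gated clusters (-0.011 to 0.1562), and for C3 in cluster 4 (-1.615 to 0.1131) and cluster 7 (-0.0572 to 0.6125). For C1qa the ranges were -0.233 to 0.0708 in cluster 10, -0.2621 to 0.4724 in cluster 15, -0.1519 to 0.0687 in cluster 4, -0.5379 to 0.1758 in cluster 5 and -0.4587 to 0.3622 in cluster 6. For C1qb they were -0.1137 to 0.072 in cluster 10, -0.7082 to 0.2696 in cluster 15, -0.0637 to 0.0807 in cluster 2, -0.1987 to 0.0063 in cluster 4, -0.3008 to 0.1872 in cluster 5 and -0.2714 to 0.2382 in cluster 6. For C1qc they were -0.1549 to 0.2074 in cluster 10, -0.4787 to 0.4273 in cluster 15, -0.0734 to 0.0169 in cluster 2, -0.5298 to 0.1407 in cluster 5 and -0.5013 to 0.2125 in cluster 6. Under alternatives that kept all libraries, 102 values of single genes and 45 others kept direction and call. The cause of the changes was not tested. With 2 libraries a group, the exact permutation p of a single value cannot go below 0.333.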
